A study of Mus musculus with 10 samples.

Results

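The 9 genes described here, Dok3, Schip1, Igsf23, Mpg, Trim11, Nos2, Dlgap5, Kctd1 and Gata5, each hold 1 CpG site that was listed as differentially methylated in spermatozoa of decitabine-treated mice and again in spermatozoa of their F3-generation. Of each gene, all CpG sites from 2 kb upstream of the gene start to the gene end were read out. The regions covered 881.4 kb with 8855 CpG sites in the reference genome, of which 1172 were in the files and 565 had at least 10 reads in all 10 animals. In the whole series 904364 CpG sites reached that coverage. The members were chosen by the difference between the decitabine and vehicle groups in both generations, so that this difference at the listed CpG site is given as a description without a test, and the question is what the other 556 CpG sites of the same genes did.

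Methylation was measured by reduced representation bisulfite sequencing (RRBS) of sperm DNA from male C57BL/6 mice. In the P-generation, 3 animals (D10, D11, D13) had been given decitabine (0.1 µg/g) intraperitoneally and 2 animals (C14, C8) only the vehicle, buffered saline with 7.5% dimethyl sulfoxide. Injections began at 7 weeks of age and went on for 7 weeks with 3 per week. The F3-generation was untreated and consisted of 3 animals of the decitabine lineage (F3D1, F3D31, F3D7) and 2 of the vehicle lineage (F3C30, F3C9). F3D1 and F3D31 descended from D10, F3D7 from D11, F3C30 from C14 and F3C9 from C8, so the generations are not independent samples. The labels name no genetic modification, and the groups differed by the treatment of the P-generation male and by generation.

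CpG methylation is a covalent mark on the cytosine of a CG dinucleotide that is copied to the new strand at replication by DNA methyltransferases. Decitabine is a cytidine analogue that is built into DNA and traps these enzymes, so that the mark is lost over divisions. In mice most marks are removed and set again in the germ line and in the early embryo. A change inherited by the F3-generation would have had to pass through these steps. Whether a difference found in the F3-generation had been inherited was not tested. RRBS cuts DNA with MspI at CCGG and sequences the ends of the resulting fragments after bisulfite treatment, which converts unmethylated cytosines and leaves methylated ones. Each read reports the cytosines of 1 strand only.

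The listed CpG site lay in an exon of 6 genes (Dok3, Mpg, Trim11, Nos2, Dlgap5, Gata5), in an intron of 3 (Schip1, Igsf23, Kctd1) and in none of the 2 kb promoters. The following stretches of the plus strand of GRCm38 show listed CpG sites with their surroundings. In some of them the neighbouring CpG sites behaved like the listed one, and in others they did not. Capitals mark the CpG sites that were covered in all 10 animals. The listed CpG site is at bases 46 and 47 of the 92-base stretches and at bases 15 and 16 of the 30-base stretches.
Dok3, chr13:55523336-55523365: caggtcagagtagaCGggttatgttCGaag
Schip1, chr3:68375282-68375373: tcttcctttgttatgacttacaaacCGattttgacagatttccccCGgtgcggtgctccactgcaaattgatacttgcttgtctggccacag
Igsf23, chr7:19950289-19950380: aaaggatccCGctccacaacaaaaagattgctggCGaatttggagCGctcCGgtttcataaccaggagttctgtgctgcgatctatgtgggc
Mpg, chr11:32227800-32227891: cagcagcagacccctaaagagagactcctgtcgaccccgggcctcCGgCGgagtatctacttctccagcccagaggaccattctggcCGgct
Trim11, chr11:58990288-58990317: aacccagagCGgttCGacccCGgcccttgc
Nos2, chr11:78956579-78956670: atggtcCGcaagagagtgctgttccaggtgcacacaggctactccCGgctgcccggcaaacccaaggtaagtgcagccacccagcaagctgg
Dlgap5, chr14:47395800-47395891: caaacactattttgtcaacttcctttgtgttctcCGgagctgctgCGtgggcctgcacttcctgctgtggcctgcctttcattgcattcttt
Gata5, chr2:180332334-180332425: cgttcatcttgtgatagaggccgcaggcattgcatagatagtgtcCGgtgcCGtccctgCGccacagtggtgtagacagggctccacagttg

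In Schip1, Mpg, Nos2, Kctd1 and Gata5 the listed CpG site was part of an MspI site itself, that is, of the letters CCGG, which read the same on both strands. These were 5 of 9 (55.6%), compared with 34.5% of all CpG sites covered in all 10 animals. The share was 54.3% among the CpG sites called in the P-generation, 56.8% among those called in the F3-generation and 69.4% among the 36 other CpG sites called in both. These shares are descriptions and were not tested. At 8 of the 9 listed CpG sites at least 99% of the reads came from 1 strand, the exception being Mpg.

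Summed over CpG cytosines, the coverage was between 48903817 calls in D13 and 115158278 in F3D1, a read being counted once for each cytosine it covered. Promoters that are unmethylated in sperm were used to check the labelled cell type. In somatic cells those of the germ cell genes are methylated. The maternally imprinted ones are methylated there on the maternal copy only, so the levels of the lists are on different scales. The germ cell genes Dazl and Ddx4 had a mean methylation between 14.3% and 38.5%, and the 4 covered of 7 maternally imprinted promoters (Peg3, Peg10, Nnat, Zrsr1) between 6.22% and 25.01%. By the mean of each list the vehicle animal C8 was highest on both, and F3C9 was highest on both within the F3-generation. On the imprinted list D11 had 23.84% beside 25.01% in C8, and D11 lay above C8 at Nnat and Zrsr1. Among the F3 animals F3C9 was highest at Nnat and Zrsr1, but not at Peg3 and Peg10. The paternally imprinted H19 upstream region, which is methylated in sperm, was between 84.7% and 100% at 2 CpG sites. There F3C9 was the lowest animal and C8 the highest. C8 and F3C9 also carried much of the group difference at several of the listed CpG sites, and values without them are given beside the results; the part that the marker levels played was not tested.

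The 3 genes whose listed CpG site was lower in the decitabine group were Dok3, Schip1 and Igsf23. Dok3 encodes an adaptor protein of immune receptor signalling, and its listed CpG site (chromosome 13, position 55523350) lay in the 3' untranslated region. The vehicle animals C14 and C8 had 31.6% (18 of 57 reads) and 33.3% (11 of 33), and D10, D11 and D13 had 12.5% (6 of 48), 2.38% (1 of 42) and 5.71% (2 of 35). In the F3-generation, F3C30 and F3C9 had 50% (15 of 30) and 44.4% (36 of 81), and F3D1, F3D31 and F3D7 had 17.9% (14 of 78), 20.6% (7 of 34) and 7.89% (6 of 76). The groups were apart in both generations, and the 2 vehicle animals of a generation were close to each other. The pooled difference came to -25.02 points in the P-generation and -31.6 points in the F3-generation, the former being the value just inside the threshold of 25 points.

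Schip1 encodes a protein that binds the tumour suppressor merlin, and its listed CpG site (chromosome 3, position 68375327) lay in the first intron and within the read-through gene Iqschfp. It was methylated in 39.0% of the reads of C14 (16 of 41) and 57.1% of those of C8 (36 of 63), against 11.1%, 23.3% and 16.7% in D10, D11 and D13. The F3 values were 30.2% and 42.2% in F3C30 and F3C9, and 15.1%, 2.44% and 6.67% in F3D1, F3D31 and F3D7. Again the groups did not overlap, with pooled differences of -33.1 and -26.9 points.

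At the listed CpG site of Igsf23 (chromosome 7, position 19950334), an immunoglobulin superfamily gene, the site lay in the first intron 422 bp from the gene start. C14 and C8 had 43.8% (14 of 32 reads) and 60% (9 of 15), while D10, D11 and D13 had 20%, 13.04% and 0% (0 of 15, which allows a level of up to 20%). F3C30 and F3C9 had 45.5% and 74.3%, and F3D1, F3D31 and F3D7 had 29.3%, 16.7% and 26.9%. No decitabine animal reached a vehicle animal in either generation, and the pooled differences were -36.1 and -36.6 points.

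In the other 6 genes the listed CpG site was higher in the decitabine group. Mpg encodes a DNA glycosylase that removes alkylated purines in base excision repair, and its listed CpG site (chromosome 11, position 32227845) was in coding exon 2 and also within Nprl3 on the opposite strand. C14 and C8 had 52.7% and 63.8%, and D10, D11 and D13 had 83.6%, 80% and 93.3%. In the F3-generation F3C30 had 80.9% and F3C9 37.8%, and F3D1, F3D31 and F3D7 had 93.0%, 78.0% and 91.3%. The groups overlapped in the F3-generation, where F3C30 lay above F3D31, although the pooled differences were similar (27.7 and 27.1 points).

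Trim11 encodes a ubiquitin ligase of the tripartite motif family. Its listed CpG site (chromosome 11, position 58990302) was in a coding exon that is 3' untranslated in another transcript. The 2 vehicle animals of the P-generation differed widely, with 72.7% in C14 (8 of 11 reads) and 21.1% in C8 (4 of 19), whereas D10, D11 and D13 had 100%, 80.5% and 80%. F3C30 and F3C9 had 63.6% and 43.2%, and the F3 decitabine lineage had 83.8%, 72% and 95%. The pooled differences were 48.6 and 32.4 points without overlap of the groups.

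Nos2, the inducible nitric oxide synthase, had its listed CpG site in a coding exon (chromosome 11, position 78956624). C14 was at 66.7% (14 of 21 reads) and C8 at 0% (0 of 21, which allows up to 14.3%), and D10, D11 and D13 were at 70%, 73.9% and 80%. F3C30 was at 66.7% again and F3C9, the descendant of C8, at 17.2% (11 of 64), with the decitabine lineage at 72.4%, 68.2% and 90%. The groups did not overlap, but the gap between C14 and the nearest decitabine animal was 3.33 points in the P-generation and that between F3C30 and the nearest was 1.52 points in the F3-generation. The pooled differences of 39.6 and 45.4 points therefore came with a standard deviation of 47.1 points between the 2 vehicle animals of the P-generation and 35.0 points between those of the F3-generation.

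Dlgap5 encodes a protein of the mitotic spindle, and its listed CpG site (chromosome 14, position 47395845) was in coding exon 14. C14 and C8 had 73.5% and 35.3%, and D10, D11 and D13 had 95.5%, 92.0% and 72.7%, so that C14 lay above D13. F3C30 and F3C9 had 73.3% and 63.6%, below F3D1, F3D31 and F3D7 with 90.7%, 100% and 100%. The pooled differences were 32.5 and 27.5 points.

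Kctd1 encodes a BTB domain protein that represses transcription, and its listed CpG site (chromosome 18, position 15132382) was in an intron. C14 and C8 had 46.2% and 16.7%, and D10, D11 and D13 had 70.8%, 77.6% and 86.7%. In the F3-generation F3C9 (47.2%) lay above F3D31 (43.8%, 7 of 16 reads), with 23.3% in F3C30, 85.4% in F3D1 and 69.1% in F3D7. The pooled differences were 46.3 and 33.7 points.

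Gata5, a zinc finger transcription factor of heart and gut development, had its listed CpG site in coding exon 2 (chromosome 2, position 180332379). All 3 decitabine animals of the P-generation were at 100% (44, 25 and 19 reads), and C14 and C8 were at 86.4% and 63.0%. In the F3-generation F3C30 was at 91.7% (11 of 12 reads) and thus above F3D1 (90.8%) and F3D7 (75.0%), while F3D31 was at 100% and F3C9 at 48.1%. The pooled differences were 26.5 and 29.3 points, and in the F3-generation F3C9 was the only animal below 75%.

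**Figure D1:**
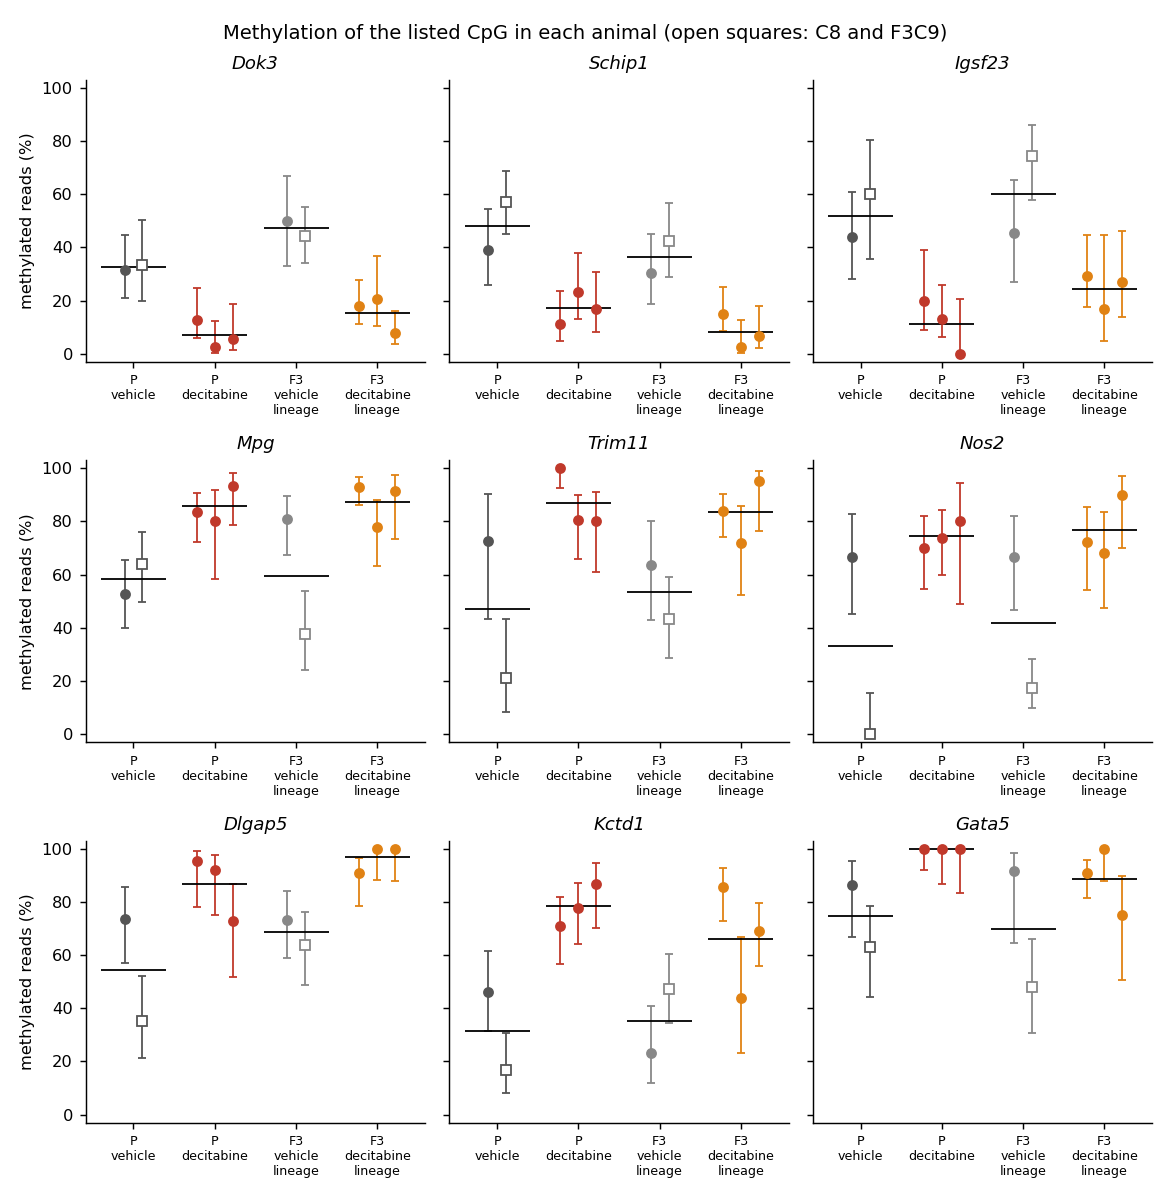
Percentage of methylated reads (y axis) at the listed CpG site of each gene in each animal, by group (x axis), with 95% Wilson intervals as bars and the group mean as a horizontal line. Open squares are C8 and its descendant F3C9, which lie far from the other vehicle animal in Nos2 (0% against 66.7%, and 17.2% against 66.7%).

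Over the 9 genes, the groups did not overlap at the listed CpG site in 8 genes in the P-generation (all but Dlgap5), in 6 in the F3-generation (all but Mpg, Kctd1 and Gata5) and in 5 in both, beside 0.75% of all CpG sites covered in all animals. Of all CpG sites tested, 0.705% were called in the P-generation (0.368% lower and 0.337% higher in decitabine) and 0.237% in the F3-generation (0.0774% lower and 0.159% higher), and the groups did not overlap at 8.41% and 9.71%; since the members were chosen in these contrasts, nothing is read from their counts. The 2 vehicle animals differed from each other by more than 25 points at 4 listed CpG sites in each generation. C8 was farther from the decitabine mean than C14 at 8 of the 9 (not Mpg), and F3C9 farther than F3C30 at 7 (not Dok3 and Kctd1). The same held at 34 and 28 of the 36 other CpG sites called in both generations.

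Without C8, the pooled difference in the P-generation was smaller at 8 of the 9 listed CpG sites. These were the ones at which C8 was the farther vehicle animal, so that the direction follows from leaving it out. The difference stayed at 25 points or more at 3 (Igsf23 with -30.96, Mpg with 32.9 and Kctd1 with 31.01). It was -24.4 points in Dok3 and -22.1 in Schip1, but 15.9 in Trim11, 13.4 in Dlgap5, 13.6 in Gata5 and 6.25 in Nos2. Without F3C9, the F3 difference was smaller at the 7 of 9 at which F3C9 was the farther vehicle animal, for the same reason. The F3 difference reached 25 points at 2 (Dok3 with -35.6 and Kctd1 with 48.9). It was under 10 points in Nos2 (9.39), Mpg (8.17) and Gata5 (-0.84), where the direction turned. The groups then hold a single vehicle animal, and no test was run on these values.

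**Figure D2:**
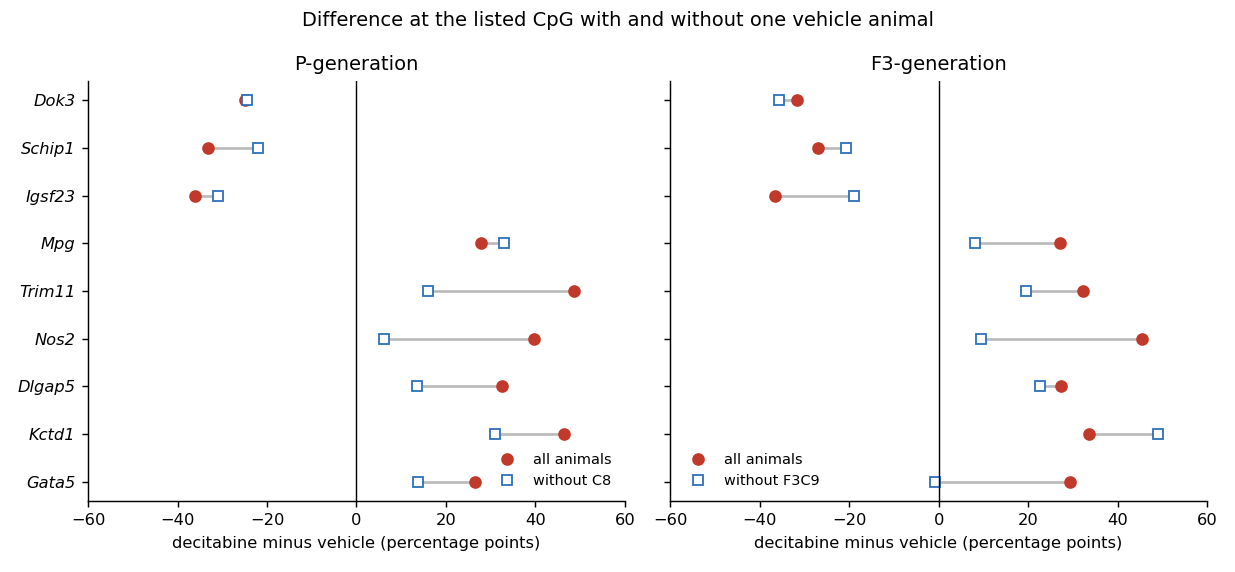
Difference between decitabine and vehicle animals (x axis, percentage points of pooled reads) at the listed CpG site of each gene (y axis), with all animals (filled circles) and without C8 or F3C9 (open squares). In Nos2 the difference went from 39.6 to 6.25 points in the P-generation and in Gata5 from 29.3 to -0.84 points in the F3-generation.

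The listed CpG site of Mpg differed from the other 8 in being read on both strands. On the plus strand 352 of its 354 reads were methylated (99.4%). On the minus strand none of 107 reads was, and counting error alone allows up to 2.80%. This CpG site is part of an MspI cut site. The paper's protocol repaired the cut ends before adapters were ligated and removed MspI sites from the reads. Whether the minus-strand calls show the methylation of sperm DNA or the repaired end was not tested. On neither strand were the groups more than 2 points apart. The plus-strand difference was 1.67 points in the P-generation and -0.68 in the F3-generation, and the minus-strand level was 0% in all animals. What differed was the share of reads from the minus strand. It was 45.5% in C14 and 36.2% in C8, but 16.4%, 20% and 6.67% in D10, D11 and D13, and 19.2% in F3C30 and 62.2% in F3C9, but 7%, 19.5% and 8.70% in F3D1, F3D31 and F3D7. The difference of 27.7 and 27.1 points thus appeared only when the strands were summed. At the neighbouring CpG site 3 bp away both strands were methylated, with at least 85.7% in each animal on either strand. At 42 bp to the right the summed differences were 6.86 and 5.83 points.

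**Figure D3:**
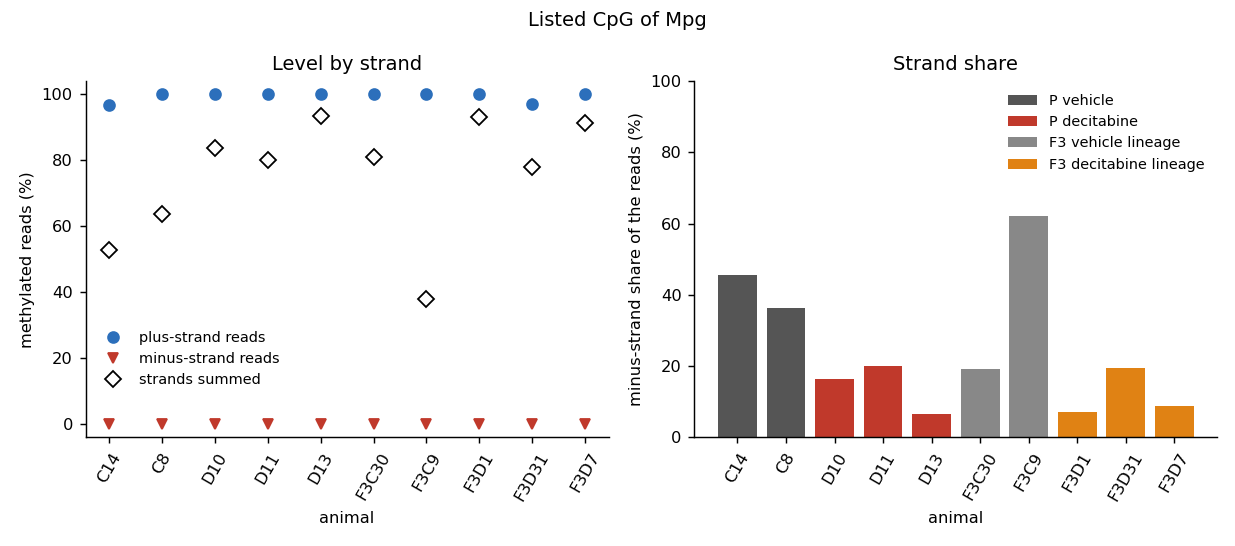
Left, percentage of methylated reads (y axis) at the listed CpG site of Mpg in each animal (x axis) on the plus strand, the minus strand and with both summed. Right, share of the reads that came from the minus strand, coloured by group; the plus strand is at 97.0% or more and the minus strand at 0% in all animals except C14, whose plus strand is at 96.7%, and the summed level goes down as the minus-strand share goes up.

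Whether other CpG sites of a gene followed the listed one was first counted over the whole gene. A CpG site was taken to follow if its pooled difference was at least 10 points in the direction of the listed CpG site in both generations. Of the 556 other CpG sites covered in all animals 5 followed (0.899%), 1 each in Dok3, Schip1 and Dlgap5 and 2 in Igsf23, and none in Mpg, Trim11, Nos2, Kctd1 and Gata5. In the 3 genes with a lower listed CpG site 4 of 160 followed (2.5%), beside 0.472% of all CpG sites that were at least 10 points lower in both generations. In the 6 genes with a higher one 1 of 396 followed (0.253%), beside 0.592% of all CpG sites. These shares describe the same contrasts by which the genes were chosen. The count was 11 without C14, 11 without D10, 3 without F3C9 and 2 without both C8 and F3C9, and it was 2 with at least 20 reads per animal.

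Most of the other CpG sites of these genes barely differed. Of the 556, 491 (88.3%) were within 10 points in both generations, and the median absolute difference of the tested ones was 0.67 points in the P-generation and 0.63 in the F3-generation, beside 0.93 and 0.96 over all CpG sites tested. Many were at an end of the scale. Of the 565 CpG sites 408 (72.2%) had a mean level under 10%, 69 (12.2%) were over 90% and 88 (15.6%) lay between. Over all CpG sites the shares were 63.8%, 17.4% and 18.8%. Dok3 and Igsf23 stood apart among the 9 genes with 23 of 28 and 11 of 16 CpG sites at intermediate levels, and they also had the largest median absolute differences (5.30 and 5.97 points in Dok3, 7.52 and 4.74 in Igsf23).

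**Figure D4:**
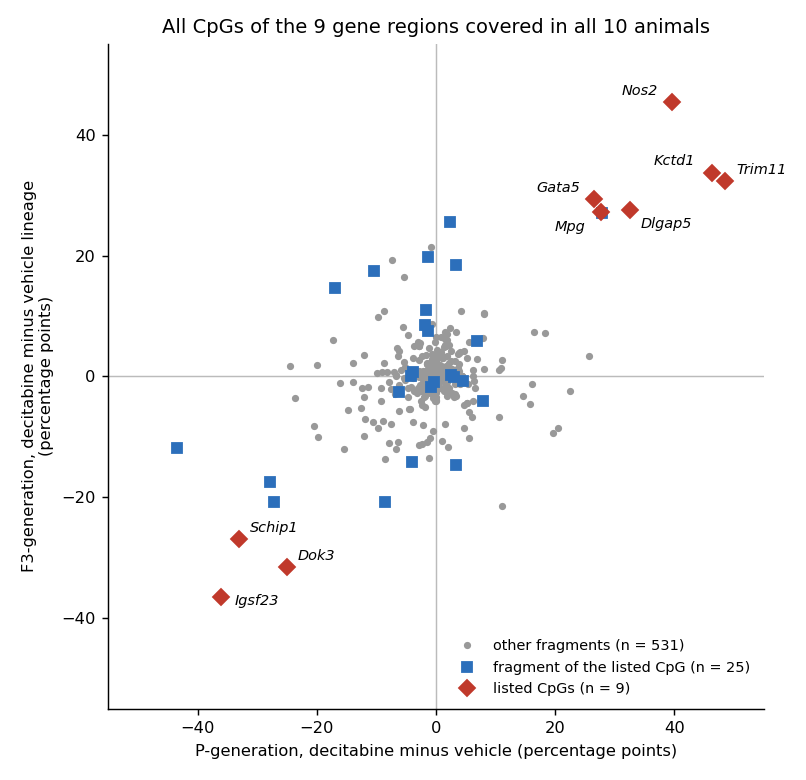
Difference between decitabine and vehicle animals in the P-generation (x axis) and in the F3-generation (y axis), in percentage points of pooled reads, for the 565 CpG sites of the 9 genes covered in all 10 animals. The listed CpG sites, which were chosen on these axes, lie at the corners; of the 25 CpG sites on the same fragment 4 are at least 10 points from 0 in the direction of the listed one on both axes, and of the 531 on other fragments 1 is.

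The following CpG sites were close to the listed one, with a single exception. Within 50 bp 4 of 17 covered CpG sites followed, from 51 to 200 bp none of 23, from there to 1000 bp none of 14, and farther away 1 of 502. Around the 36 other CpG sites called in both generations 25 of 70 CpG sites within 50 bp followed (35.7%), beside the 23.5% here. The distant one was in coding exon sequence of Dok3, 3982 bp from the listed CpG site and 1964 bp from the gene start. There C14 and C8 were at 100% and D10, D11 and D13 at 70%, 82.1% and 88.9%, and F3C30 and F3C9 were at 100% and 97.4% with the decitabine lineage at 91.9%, 85.7% and 85.7%. The pooled differences were -19.8 and -10.1 points. Beyond 1000 bp 1 CpG site also differed by at least 10 points against the direction of the listed one in both generations. It was in Gata5, 1906 bp from the listed CpG site, with -15.4 and -12.0 points.

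**Figure D5:**
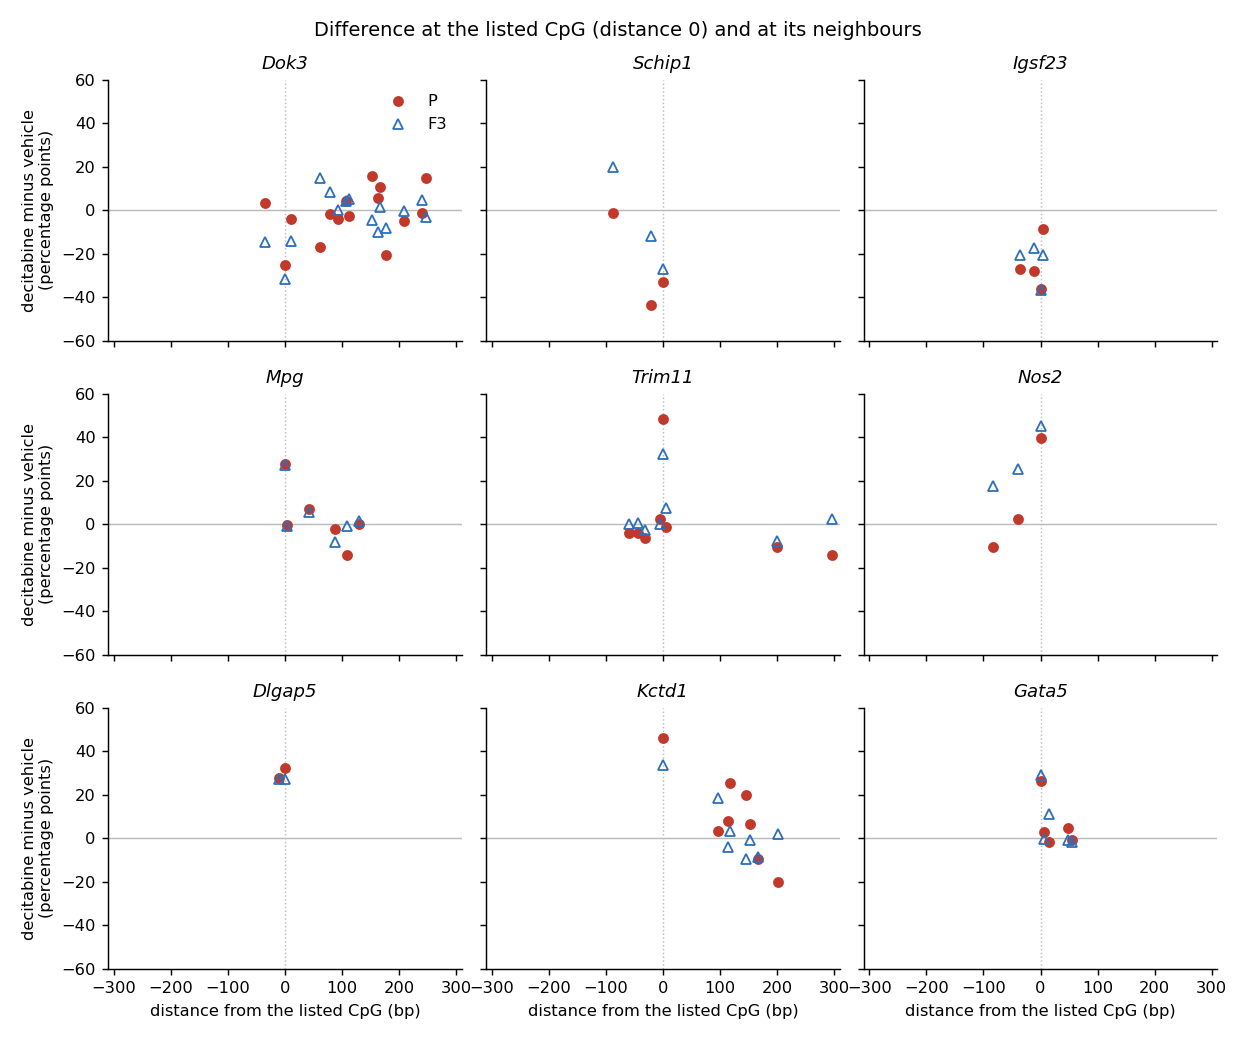
Difference between decitabine and vehicle animals (y axis, percentage points of pooled reads) in the P-generation (circles) and the F3-generation (triangles) at the listed CpG site, at 0, and at CpG sites covered in all animals and nearby (x axis, along the plus strand). Neighbours of Igsf23 lie on the same side of 0 as the listed CpG site, and those of Trim11 and Mpg lie within 20 points of 0.

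In Igsf23 the neighbours on the fragment that were covered in all animals went in the direction of the listed CpG site. All 4 covered CpG sites of the fragment were lower in the decitabine group in both generations, with -27.2 and -20.7 points at 36 bp to the left (on the plus strand), -27.8 and -17.5 at 11 bp to the left, and -8.49 and -20.8 at 5 bp to the right. C8 was at 60%, 60% and 33.3% at these neighbours and C14 at 37.5%, 28.1% and 15.6%. D10 was at 16%, 16% and 16%, D11 at 19.6%, 10.9% and 13.04%, and D13 at 13.3%, 0% and 6.67%, so that the P groups overlapped at the CpG site to the right, where D10 lay above C14. In the F3-generation F3D7 was at 53.8%, 50% and 30.8%, which overlapped F3C30 with 47.6%, 40.9% and 27.3%. Without C8 the P differences at the 3 neighbours were -20.06, -17.7 and -2.83 points, and without F3C9 the F3 differences were -5.85, -9.26 and -0.69 points. In the intron CpG sites outside it, 7 in number, the mean level was 76.4% ± 3.44 (SD, n = 2) in vehicle and 77.6% ± 2.25 (n = 3) in decitabine animals of the P-generation.

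In Schip1 and Dlgap5 the nearest neighbour in the same reads followed. The CpG site of Schip1 20 bp to the left was at 31.7% and 71.4% in C14 and C8 and at 8.89%, 13.95% and 14.3% in D10, D11 and D13 (-43.5 points). Without C8 the difference was -19.4 points, beside -22.1 at the listed CpG site. In the F3-generation it was at 20.9% and 15.6% in F3C30 and F3C9 and at 9.59%, 2.44% and 4.44% in the decitabine lineage (-11.9 points, and -14.6 without F3C9). The other covered CpG site of the Schip1 fragment, 88 bp to the left, did not follow. Its difference was -1.25 points in the P-generation, with overlapping groups, and 19.7 points in the F3-generation, the opposite direction, with 7.55% and 0% in F3C30 and F3C9 against 27.9%, 31.5% and 8.33% (q = 0.00469 in the likelihood-ratio test). The CpG site of Dlgap5 11 bp to the left, in the MspI site at the start of the fragment, had 73.5% and 35.3% in C14 and C8, the same as the listed one, and 95.5%, 91.7% and 59.1% in the decitabine animals. Its F3 levels were 62.2% and 63.6% against 81.4%, 93.1% and 100%. With differences of 27.9 and 27.1 points it lay just outside the rule, because its q value in the P-generation was 0.013. C14 lay above D13 there, and without C8 the P difference was 8.82 points. The CpG sites of the Dlgap5 fragment 73, 77, 81, 84 and 114 bp to the right had only 6 reads in C8. They were therefore not tested in the P-generation. Their F3 differences were -4.65, 0.01, -0.73, 2.18 and -3.35 points, beside 27.5 at the listed CpG site.

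Of the 2 covered neighbours on the fragment of Nos2, 1 followed on the strand that had been read at the listed CpG site, and only with C8 and F3C9 included. At the CpG site 39 bp to the left, the strands summed gave 2.34 and 25.6 points. On the minus strand, with the same number of reads in each animal as at the listed CpG site, C14 was at 66.7% and C8 at 0%, D10, D11 and D13 at 50%, 60.9% and 50%, F3C30 and F3C9 at 62.5% and 18.8%, and the F3 decitabine lineage at 62.1%, 54.5% and 85%. The differences on this strand were 21.9 and 35.5 points. C14 lay above all 3 decitabine animals of the P-generation there, and F3C30 above F3D1 and F3D31. Without C8 and F3C9 the differences were -11.5 and 3.70 points. The CpG site 83 bp to the left had summed differences of -10.4 points in the P-generation and 17.4 in the F3-generation. In the P-generation the groups overlapped there, with 40% and 15.9% in C14 and C8 and 26.7%, 0% and 31.8% in D10, D11 and D13.

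In Trim11 the listed CpG site stood alone. The CpG sites 32 and 5 bp to the left, in the same number of reads in each animal, were between 90.9% and 100% in all 10 animals. At 5 bp to the left C8 was at 100%, where the listed CpG site of the same reads was at 21.1%. At 6 bp to the right 9 animals were at 88.75% or more, and F3C9 was at 67.6%. The differences at these 3 neighbours on the minus strand were between -1.93 and 2.46 points in the P-generation and between 0.19 and 13.2 in the F3-generation, beside 48.6 and 32.4 at the listed one. The other covered CpG sites of the fragment, 59 and 44 bp to the left, had summed differences of -4.22 and -3.81 points in the P-generation and 0 and 0.71 in the F3-generation.

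On the fragment of Gata5 the F3 differences of 2 of 3 neighbours on the plus strand turned without F3C9. On the plus strand, the CpG sites 6, 14 and 48 bp to the right had differences of 9.93, -3.87 and 10.4 points in the P-generation and 23.8, 33.0 and 17.2 in the F3-generation. In the latter F3C9 was lowest at each of them, with 48.1%, 44.4% and 59.3%. Without F3C9 the F3 differences were 22.5, -5.50 and -11.01 points, F3C30 being at 50%, 100% and 100%. With both strands summed the fragment's neighbours were within 5 points in the P-generation and within 12 points in the F3-generation. Outside the fragment the exons of Gata5 were nearly unmethylated, with 1.73% over 48 CpG sites, whereas the listed CpG site was at 48.1% or more in all animals.

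The neighbours on the fragments of Dok3 and Kctd1 were mixed. At 36 bp to the left the plus-strand difference was -0.48 points in the P-generation and -22.7 in the F3-generation, and at 11 bp to the right it was -3.97 and -14.1. Without C8 and F3C9 these were -10.3 and -15.4, and 5.20 and -7.38. At 61 bp to the right the summed difference was -16.9 and then 14.6. Kctd1 had 1 covered CpG site on the read strand of the fragment, 114 bp to the right, with 18.7 and -6.97 points (13.2 and 2.25 without C8 and F3C9). Another one at 97 bp had summed differences of 3.45 and 18.4 points. Over all 9 genes, 19 neighbours on the fragment had at least 10 reads per animal on the strand of the listed reads, and 6 of them followed in both generations, in Igsf23 (2), Schip1, Nos2, Dlgap5 and Gata5. These were 3 of 7 in the genes with a lower listed CpG site, beside 0.5% of all strand positions covered in all animals, and 3 of 12 in those with a higher one, beside 0.615%. Without C8 and F3C9 there were 3, of which only the one in Schip1 was among the 6. The other 2 were the CpG site of Dok3 at 36 bp to the left and that of Gata5 at 6 bp to the right. This count by strand was chosen after seeing the data. All 19 neighbours lay on the fragment and strand of CpG sites that had been chosen by these contrasts. The excess over all strand positions is therefore not read as a trait of these genes.

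Single CpG sites other than the listed ones were called, at 25 points or more and a q value under 0.01, at 3 of 579 positions in the P-generation and 3 of 668 in the F3-generation, beside 0.705% and 0.237% of all CpG sites in the respective generation. In the P-generation these were the neighbours of Schip1 and Igsf23 described above and a CpG site of Kctd1 117 bp from the listed one. There C14 and C8 were at 57.4% and 19.4% and D10, D11 and D13 at 53.7%, 84.8% and 71.9%, with overlap of the groups (25.6 points, and 3.42 in the F3-generation). In the F3-generation they were the neighbours of Nos2 and Dlgap5 and an intron CpG site of Dok3, 1544 bp from the listed one, at which F3C9 was at 61.5% (16 of 26 reads) and the other 4 animals at 100%. No CpG site other than the listed ones was called in both generations, beside 0.00498% of all CpG sites.

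These calls were not made by tests that take the spread between animals into account. With an overdispersion term or with limma there were 0 of them in either generation; at an unadjusted p under 0.05 the F test gave 1 and 1 and limma 3 and 2. There were 0 calls without C8 and 19 without C14 in the P-generation, and 0 without F3C9, 7 without F3C30 and 1 without F3D7 in the F3-generation. Without C8 or F3C9 the vehicle arm is 1 animal, and the likelihood-ratio test then compares reads and not animals. A limma fit without them, in which the single vehicle animal is assumed to vary like the decitabine animals, made 0 calls in either generation. At a difference of 25 points and an unadjusted p under 0.05 it gave 0 in the P-generation and 1 in the F3-generation.

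The generations differed in the size of the lineage difference at 5 of 556 other CpG sites (logistic interaction term, q under 0.01), beside 2.1% of all CpG sites. These were 2 in Dok3, 2 in Kctd1 and 1 in Gata5. The CpG site of Dok3 61 bp from the listed one had 25.6% and 22% in C14 and C8 against 14.6%, 3.45% and 0% in D10, D11 and D13, and the reverse order in the F3-generation, with 5.56% and 4.60% in F3C30 and F3C9 against 26.2%, 20.5% and 9.09%. The count was 25 without C14, 3 without D11, 8 without F3C30, 9 without F3D31, and 0 without F3C9. With the ancestor of each animal as a block the count was 5 as well, 3 of them shared with those without the block (61 bp in Dok3, 1 in Kctd1 and 1 in Gata5).

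The F3-generation was also compared with the P-generation irrespective of lineage, a contrast that the choice of the genes had not used. By limma with a term for lineage, 0 of the 565 CpG sites passed an adjusted p of 0.05, the lowest adjusted p being 0.75, beside 0.000111% of all CpG sites. At an unadjusted p under 0.05 there were 41 (7.26%), compared with 6.47% of all CpG sites. Igsf23 had the largest share with 5 of 16, among them the CpG site 36 bp to the left of the listed one with a mean of 29.3% in the P-generation and 49.7% in the F3-generation. At 20 bp to the left in Schip1 the mean was 28.0% and 10.6%. Neither passed the correction for multiple tests.

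By part of the gene, the mean levels differed little between the groups once the fragment of the listed CpG site was left out. In the exons of Mpg (30 CpG sites) the vehicle and decitabine animals had 30.9% ± 0.30 (SD, n = 2) and 30.01% ± 0.56 (n = 3) in the P-generation and 29.3% ± 0.65 and 29.4% ± 0.59 in the F3-generation. The exons of Kctd1 (51 CpG sites) were at 1.95% ± 0.90 and 1.53% ± 0.38, and at 1.26% ± 0.11 and 2.69% ± 0.78. The 84 intron CpG sites of Schip1 were at 32.5% ± 1.11 and 30.8% ± 0.59, and at 32.9% ± 0.20 and 31.6% ± 0.88. Dok3 introns had the largest difference among parts with more than 1 CpG site, with 74.9% ± 4.09 and 64.9% ± 8.16 at 5 CpG sites in the P-generation and 66.6% ± 9.29 and 71.3% ± 5.23 in the F3-generation, which is of opposite sign.

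Promoter CpG sites were covered in all animals in 3 genes. The 20 of Trim11 were between 0.27% and 2.28% methylated in each animal, and the 19 of Gata5 between 3.22% and 7.90%. The 2 of Schip1 were between 84.3% and 95.1%. Of these 41 promoter CpG sites none followed the listed CpG site, compared with 2 of 255 in exons and 3 of 260 in introns.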

How the data were processed

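RRBS of sperm DNA from 10 mice was analysed, and groups were taken from the sample labels. Per the submitters' processing notes the authors used CASAVA 1.8.2, Trim Galore 0.3.3, cutadapt 1.1 and Bismark 0.10.1 with mm10, and deposited for each animal methylated and unmethylated read counts per CpG cytosine, without normalization or pooling. All 2620673 positions were CpG cytosines in GRCm38. A C-to-T sequence difference on the strand read would be counted as unmethylated.

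The strands were summed, and CpG sites with at least 10 reads in all animals compared were tested with a logistic likelihood-ratio test (Python 3.11.15, scipy 1.17.1). q values were by Benjamini-Hochberg over all CpG sites. A CpG site was called at a pooled difference of 25 points or more and a q value under 0.01. The model has no term for the spread between animals, and reads are not independent molecules, so intervals and limits for a count of 0 (3 reads) cover counting error only. Generations were compared with limma 3.58.1 (R 4.3.3) on the log2 of methylated over unmethylated reads, with 1 added to both. Genes were taken from GENCODE M21. A CpG site inside CCGG ends both adjoining fragments. For listed ones, plus-strand reads assigned the right fragment and minus-strand reads the left one. Where the reads themselves began was not checked. Named were the listed CpG sites, those of their fragments, the nearest outside, and called ones. Single values outside this were chosen after they were seen. The members and lists were chosen with earlier results of these data known. Only gene names and positions were read from the study's list. The scripts were tested on simulated data. Alternatives were other coverage minimums, tests, thresholds, regions and strands, leaving out each animal, and the ancestor as a block.

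With 28 to 63 reads at the median, depth limited single levels to about the intervals drawn.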

Additional observations from a re-analysis of the deposited data

Results flagged for a closer look

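At 5 of the 556 other CpG sites of these genes the interaction term of the logistic model had a q value under 0.01. Over all CpG sites the share was 2.1%, so the count is not read as a trait of these genes. The model has no term for the spread between animals. In Dok3 this was the CpG site 61 bp from the listed one (q = 8.16e-05; -16.9 points in the P-generation and 14.6 in the F3-generation) and the one at 447 bp (q = 0.00833; 11.1 and -21.5 points), where the groups overlapped in the P-generation. In Kctd1 it was an intron CpG site at -72293 bp (q = 0.00977; 20.5 and -8.60 points) and a 5' untranslated one at -68349 bp (q = 0.00445; -5.58 and 8.11 points), where C8 was the only P animal above 3% and the F3 decitabine lineage had 7.32% to 8.70% against 0% in F3C30 and F3C9. In Gata5 it was an exon CpG site 1659 bp from the listed one (q = 0.00299), at which F3C30 and F3C9 had 8.77% and 12.5% and the F3 decitabine lineage 0% in 114, 50 and 64 reads. With the ancestor of each animal as a block, the q values at 447 bp in Dok3 (0.0315) and at -72293 bp in Kctd1 (0.0151) were above 0.01. None of the 5 passed without both C8 and F3C9, an alternative chosen after seeing the data, with q values from 0.0326 to 1.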

How the results depend on the processing

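The labels give no shared replicate numbers. The P-generation ancestor of each F3 animal was taken from the legend of the study's clustering dendrogram. Over all CpG sites covered in all animals, deviations from the group means correlated by -0.06 to 0.018 in the 3 decitabine pairs. In the vehicle pairs the correlation was 0.158. With 2 vehicle animals per generation their deviations mirror each other, so both vehicle pairs must give this same value. With the ancestor as replicate block, a paired fit chosen after seeing the data, 5 CpG sites differed between the generations, 3 of them the same as without it, and the comparison of the generations gave 0 (34 at an unadjusted p under 0.05, beside 41). P stands for the P-generation and F3 for the F3-generation. The 3 calls in P and the 3 in F3 became 0 and 0 with the overdispersion term, 0 and 0 with limma, 10 and 8 with a threshold of 10 points (beside 2.13% and 0.953% of all CpG sites), 1 and 1 outside the fragment of the listed CpG site, and 0 and 0 without C8 and F3C9, also by limma; mean percentages gave 1 in F3. Leaving out 1 animal gave 0 to 19 calls in P and 0 to 7 in F3. The count of 5 following CpG sites became 2 with 20 reads, 1 outside the fragment and 2 without C8 and F3C9, and 3 to 11 when leaving out 1 animal. The 5 CpG sites that differed between the generations became 0 without C8 and F3C9 and 0 to 25 when leaving out 1 animal. The comparison of the generations gave 0 throughout, from 0 to 0 without 1 animal. Of the listed CpG sites, Mpg in F3 was -0.68 points on the plus strand, and Gata5 in F3 ranged from -0.84 to 42.68 when leaving out 1 animal, the former without F3C9. Leaving out C8 and F3C9 was chosen after seeing the data; the vehicle arm is then 1 animal. The causes were not tested.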

Other observations

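The overlapping gene records mean that several CpG sites cannot be assigned to 1 gene. All 45 CpG sites of Mpg covered in all animals also lay in Nprl3 on the opposite strand, all 119 of Schip1 in the read-through gene Iqschfp, and 68 of the 73 of Gata5 in the antisense gene Gata5os, which did not hold the listed CpG site.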
